A study of Mus musculus with 35 samples.

Results

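The 10 genes described here are those for the Janus kinases Jak1 and Jak3, the transcription factors Stat3, Stat5a, Stat5b and Stat6, and the feedback inhibitors Socs1, Socs2, Socs3 and Cish. They were taken by symbol from a table of 55011 symbols, and all 10 were among the 15910 genes that passed the filter on low counts. RNA was sequenced from Tregs, or regulatory T cells, a CD4+ lineage that holds immune reactions in check, which were double-sorted as CD4+ CD25+ cells out of visceral adipose tissue (VAT) and out of spleen. All animals were wild-type C57BL/6 male mice, retired breeders older than 35 weeks on a cycle with 12 h of light a day, and the labels name no treatment. Cells were collected at ZT0, ZT4, ZT8, ZT12, ZT16 and ZT20, where zeitgeber time (ZT) counts hours from lights on. VAT at ZT20 was sequenced in 2 libraries and every other group in 3, which makes 17 VAT and 18 spleen libraries of 1000 sorted cells each. Libraries of a group carry letters from A to D. The labels do not say whether they came from separate mice or whether mice were pooled, and the tests therefore weigh differences only against the spread among libraries, which may be technical.

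A cytokine that binds its receptor brings together the Janus kinases held on the receptor tails, and these phosphorylate the receptor and then the STAT proteins docked there. Phosphorylated STAT proteins pair, enter the nucleus and bind palindromic sites in their target genes. Genes of the SOCS family are among those targets, and their proteins act back on the receptor complex, so that their transcripts are often read as a trace of recent signalling. In Tregs the best known route runs from interleukin 2 through JAK1 and JAK3 to STAT5, which maintains Foxp3, the lineage factor. RNA levels of the kinases and STAT genes do not measure phosphorylation.

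Library totals ran from 2178238 to 6260185 counts in VAT and from 2069319 to 5328695 in spleen. The 7 Treg markers summed to between 5708 and 7611 counts scaled to library size (CPM, with the scaling factors of edgeR) in VAT and between 2849 and 3761 in spleen. Among them Foxp3 averaged 711 CPM in VAT and 521 in spleen, and Ctla4, which differed most, 2241 and 401. Cd3e alone averaged less in VAT, at 171 CPM against 327 in spleen. The 6 B cell markers summed to between 93.9 and 304 CPM in VAT and between 1199.5 and 3084 in spleen. Most of that was Ighm, which averaged 159 CPM in VAT and 1804 in spleen. The 6 macrophage or monocyte markers summed to at most 22.0 CPM in VAT and 97.2 in spleen, and the 5 adipocyte markers to at most 6.26 and 3.60. The 6 markers of NK cells or innate lymphoid cells summed to at most 52.1 CPM in VAT and 9.31 in spleen. Most of that in VAT was Il5, which averaged 21.8 CPM in VAT and 0.116 in spleen. Klrb1c, Klrk1, Eomes and Klrd1 averaged less in VAT than in spleen, and Ncr1 averaged 0.0898 and 0.0600. Of all genes tested, 28.4% were higher in VAT and 33.8% lower. Of 16 early genes that tissue dissociation also induces, 15 were higher in VAT, none was lower, and Klf2 did not pass. Their summed level ran from 23556 to 31774 CPM in VAT and from 851 to 1302 in spleen. Handling and tissue cannot be told apart in this design, and the part of these markers and early genes in the results that follow was not tested.

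Between the tissues, the SOCS family moved in opposite directions. Cish was 5.18-fold and Socs2 3.56-fold higher in VAT, Socs3 was 2.48-fold lower, and no library of one tissue reached the range of the other for these genes. Stat5a and Stat5b were lower in VAT by 1.92-fold and 1.77-fold. Smaller differences were found for Stat6 and Jak1, both lower in VAT, and for Socs1, higher in VAT. Jak3 and Stat3 did not pass the test.

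In all, 8 of the 10 genes passed an adjusted p of 0.05 in edgeR, against 62.2% of all genes tested. Of these, 3 were higher in VAT, where 28.4% of all genes were, and 5 were lower, where 33.8% of all genes were. The 10 genes had a median log2 difference of -0.12, and all genes tested had one of -0.10. A difference of at least 2-fold was called for 3 of the 10 and for 29.8% of all genes, and the libraries of the tissues did not overlap for the same 3 and for 10.4% of all genes. The count of called members was thus not far above that of genes at large. In these bulk libraries a smaller share of cells with a transcript and less of it per cell cannot be told apart.

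**Figure D1:**
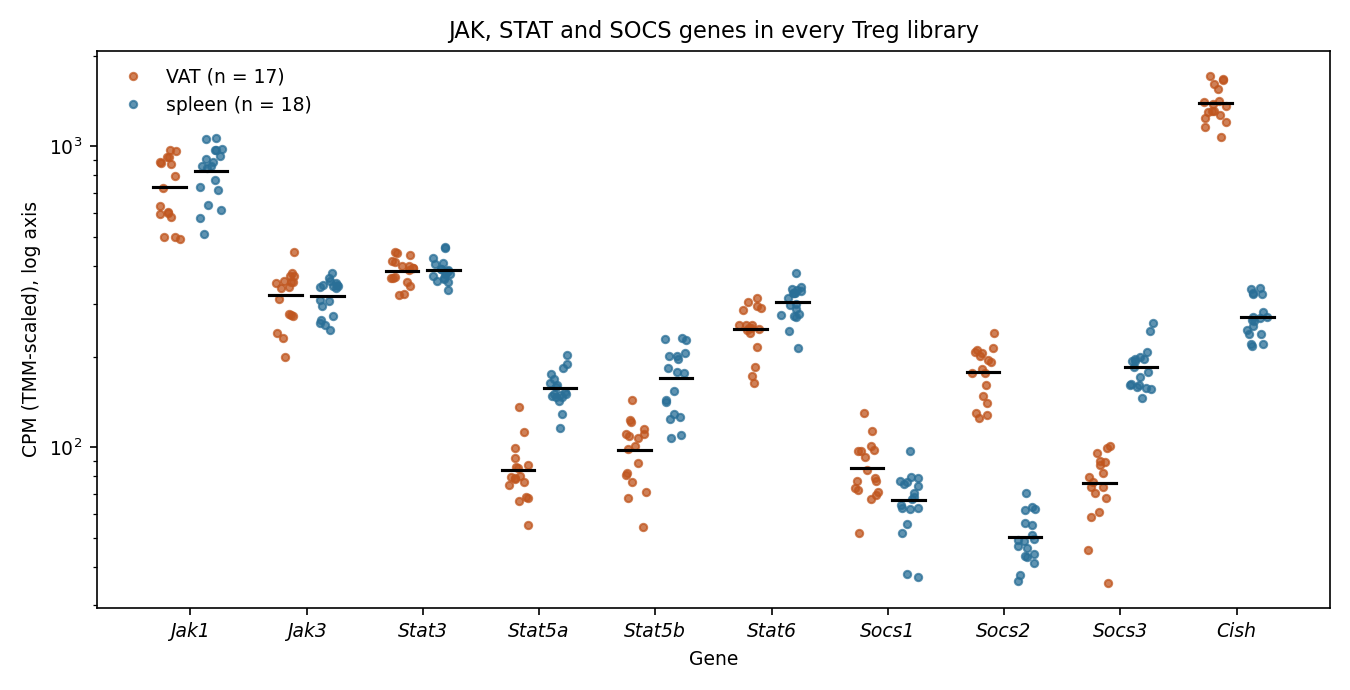
Level of each of the 10 genes in every library, in CPM on a log axis, with VAT and spleen side by side; each point is 1 library. Cish and Socs2 lie higher in all 17 VAT libraries than in any of the 18 spleen libraries, and Socs3 lies lower in all 17.

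Cish (chromosome 9, 107296026 to 107302784, plus strand, GRCm38) encodes an SH2 protein induced through STAT5 that damps signalling from cytokine and T cell receptors. Its promoter and that of Socs3 are shown because these genes of one family differed in opposite directions and theirs were the windows that held the textbook STAT palindrome TTCNNNGAA. The windows, from RefSeq on GRCm38.p6, run from 250 bases before the start site to 50 after it, are written 5′ to 3′ on the gene's strand, and carry each palindrome in capitals. The Cish window is chr9:107296409-107296708 on the plus strand and the Socs3 window is chr11:117969317-117969616 on the minus strand.
Cish: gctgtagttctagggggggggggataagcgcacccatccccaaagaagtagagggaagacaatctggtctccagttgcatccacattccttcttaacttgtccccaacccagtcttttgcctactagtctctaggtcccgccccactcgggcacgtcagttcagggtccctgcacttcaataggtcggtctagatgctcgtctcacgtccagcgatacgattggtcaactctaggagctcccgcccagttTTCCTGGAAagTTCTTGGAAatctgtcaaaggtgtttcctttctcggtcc
Socs3: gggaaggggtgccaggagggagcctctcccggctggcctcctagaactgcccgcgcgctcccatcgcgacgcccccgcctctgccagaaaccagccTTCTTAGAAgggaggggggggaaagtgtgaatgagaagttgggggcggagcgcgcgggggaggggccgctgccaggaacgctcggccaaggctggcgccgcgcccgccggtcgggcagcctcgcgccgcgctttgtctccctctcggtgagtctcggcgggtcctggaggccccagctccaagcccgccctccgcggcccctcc
The Cish window held TTCCTGGAA and TTCTTGGAA, which begin at positions 1 and 12 from the start site, and the Socs3 window held TTCTTAGAA, which begins at -154. Windows were found for 9 of the 10 genes, 11 windows in all, and the windows of Jak1, Jak3, Stat3, Stat5a, Stat5b, Stat6 and Socs1 held no match. Of 32851 promoter windows of this length, 8.3% held at least 1 match to TTCNNNGAA, which reads the same on both strands, and 0.457% held at least 2. The longer palindrome TTCNNNNGAA, read as a separate motif, was in none of the 11 windows and in 6.95% of all windows. A match describes the letters and does not show that a factor binds there.

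Cish ran from 1074 CPM through a median of 1363 to 1712 in the VAT libraries and from 217 through 266 to 337 in the spleen libraries. The lowest VAT library was thus above the highest spleen library. The log2 difference was 2.37 ± 0.06 (SE, adjusted p = 1.79e-30, edgeR), higher in 17 of 17 VAT libraries. It was called at each of the 6 times, from 2.17 at ZT12 to 2.76 at ZT20.

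Socs2 (chromosome 10, 95385362 to 95417180, minus strand) encodes the inhibitor best known for limiting growth hormone signalling through STAT5. It ran from 125 CPM through 182 to 239 in VAT and from 35.9 through 49.0 to 70.5 in spleen. All VAT libraries were above all spleen libraries. The log2 difference was 1.83 ± 0.09 (SE, adjusted p = 3.52e-20, edgeR), and it was called at each of the 6 times, between 1.64 at ZT12 and 2.16 at ZT20.

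Socs3 (chromosome 11, 117966079 to 117970047, minus strand) encodes the inhibitor that binds the shared interleukin 6 receptor chain gp130. It ran from 35.5 CPM through 76.5 to 101 in VAT and from 146 through 182 to 259 in spleen. Here all VAT libraries were below all spleen libraries. The log2 difference was -1.31 ± 0.09 (SE, adjusted p = 7.63e-15, edgeR) and was called at each of the 6 times. It was most negative at ZT0 (-1.56) and least so at ZT8, where the means were 95.6 CPM in VAT and 192 in spleen.

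Socs1 (chromosome 16, 10782240 to 10785536, minus strand) encodes a direct inhibitor of the kinases JAK1 and JAK2 that restrains interferon gamma signalling. It ran from 51.7 CPM through 78.8 to 130.1 in VAT and from 37.1 through 67.7 to 97.1 in spleen, and 5 of 17 VAT libraries lay above the highest spleen library while the others overlapped. The log2 difference was 0.38 ± 0.10 (SE, adjusted p = 0.00115, edgeR). It was positive at all 6 times and called at ZT16 (0.76 ± 0.24, adjusted p = 0.0131). The call was lost when libraries were scaled by their totals (0.03, adjusted p = 0.817), a scaling that moved the median of all genes from -0.10 to -0.45.

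Stat5a (chromosome 11, 100859351 to 100885169, plus strand) and Stat5b (chromosome 11, 100780731 to 100850724, minus strand) are neighbouring genes whose proteins carry the interleukin 2 signal. Stat5a ran from 55.3 CPM through 79.4 to 136 in VAT and from 116 through 151 to 203 in spleen, and 16 of 17 VAT libraries lay below the lowest spleen library. Its log2 difference was -0.94 ± 0.08 (SE, adjusted p = 3.77e-13, edgeR), called at each of the 6 times. Stat5b ran from 54.3 CPM through 101 to 144 in VAT and from 107 through 178 to 230.3 in spleen, and 9 of 17 VAT libraries lay below the lowest spleen library. Its log2 difference was -0.82 ± 0.09 (SE, adjusted p = 2.79e-10, edgeR), called at 5 of 6 times and not at ZT16 (-0.44 ± 0.21, adjusted p = 0.110). The exons of the pair share 942 stretches of 25 bases, the length of a read, which make up 13% of those of Stat5a and 17% of those of Stat5b. Counting could have split such reads between them, so each value is uncertain to that extent, and the sum of both genes, tried after seeing the data, differed by -0.88 (adjusted p = 1.22e-13).

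Stat6 (chromosome 10, 127642986 to 127660957, plus strand), which carries signals of interleukins 4 and 13, ran from 163 CPM through 249 to 313 in VAT and from 213 through 306 to 379 in spleen. The ranges overlapped, with 3 VAT libraries below the lowest spleen library. The log2 difference was -0.33 ± 0.06 (SE, adjusted p = 1.13e-05, edgeR), negative at all 6 times and called at ZT16 (-0.40) and ZT20 (-0.59). Stat3 (chromosome 11, 100885098 to 100939540, minus strand), which carries signals of interleukins 6 and 10, ran from 321 CPM through 394 to 445 in VAT and from 332 through 382 to 462 in spleen. Its log2 difference was -0.01 ± 0.05 (SE, adjusted p = 0.855, edgeR), with a 95% interval from -0.10 to 0.08. Stat3 was the steadiest of the 10 genes, with a coefficient of variation of 9.92% over the VAT and 8.86% over the spleen libraries. Its exons share 72 bases with those of Stat5a on the other strand, where reads cannot be assigned without strand.

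Jak1 (chromosome 4, 101152367 to 101265282, minus strand) encodes the kinase shared by most cytokine receptors of T cells. It ran from 492 CPM through 727 to 971 in VAT and from 513 through 863 to 1067 in spleen. The ranges overlapped almost wholly, and the log2 difference was -0.21 ± 0.09 (SE, adjusted p = 0.0371, edgeR), called at none of the 6 times alone. This call was lost without the ZT20 libraries (-0.19, adjusted p = 0.0867) and without any one of 18 of the 35 libraries. Jak3 (chromosome 8, 71676296 to 71690575, plus strand) encodes the kinase held by the common gamma chain. It ran from 199 CPM through 342 to 445 in VAT and from 245 through 339 to 379.5 in spleen, with a log2 difference of -0.03 ± 0.07 (SE, adjusted p = 0.755, edgeR) and a 95% interval from -0.16 to 0.11. At ZT20 alone it was called lower in VAT (-0.50 ± 0.18, adjusted p = 0.0424), where VAT had 2 libraries. Scaled by library totals, Jak3 (-0.37, adjusted p = 1.08e-05) and Stat3 (-0.36, adjusted p = 9.54e-09) were both called lower in VAT, in a scaling that moved all genes by -0.34 at the median.

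**Figure D2:**
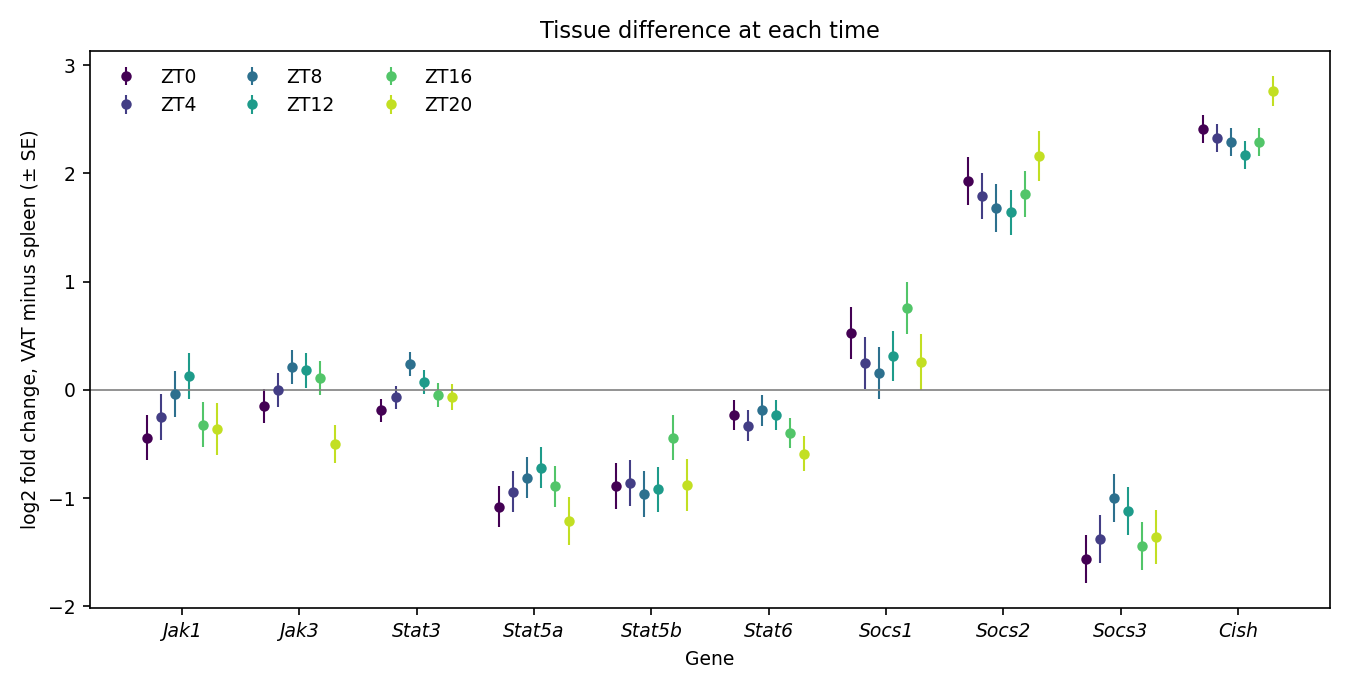
Log2 difference of VAT minus spleen for each of the 10 genes at each of the 6 times, estimated in edgeR. Cish and Socs2 stay above 1.5 and Socs3 stays below 0 at every time, while Jak1, Jak3 and Stat3 lie on both sides of 0.

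By time, 5 members were called at ZT0, ZT4, ZT8 and ZT12, 6 at ZT16 and 7 at ZT20. Over all genes the share called was 30.3% at ZT0, 28.4% at ZT4, 28.3% at ZT8, 28.1% at ZT12, 30.7% at ZT16 and 23.9% at ZT20. The genes called at each time were Cish, Socs2, Socs3 and Stat5a.

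Levels can be set against each other between genes only per length, here CPM per kilobase of the principal transcript. In VAT the order of these levels was led by Cish at 488 ± 66.4 (SD, n = 17), followed by Jak1 at 149 ± 36.1. Next came Stat3 at 85.5 ± 8.49, Socs2 at 80.1 ± 15.5, Jak3 at 80.0 ± 15.9 and Stat6 at 65.7 ± 11.6, neighbours that lay within their spread. Socs3 at 29.7 ± 7.16, Socs1 at 29.4 ± 6.63, Stat5a at 21.6 ± 4.83 and Stat5b at 18.8 ± 4.49 closed the order. In spleen the level per kilobase of Jak1 came first at 169 ± 33.8 (SD, n = 18), then Cish at 95.3 ± 14.3, Stat3 at 85.9 ± 7.61, Stat6 at 80.1 ± 10.5, Jak3 at 79.1 ± 10.6 and Socs3 at 72.4 ± 12.0. Below them were Stat5a at 40.4 ± 5.41, Stat5b at 32.7 ± 8.03, Socs1 at 22.9 ± 5.07 and Socs2 at 22.7 ± 4.27. Cish thus stood first in VAT, and in spleen Socs1 and Socs2, which lay within their spread of each other, closed the order. The order depends on the length used: per kilobase of all annotated exons, Socs2 had 18.7 in VAT in place of 80.1, and Cish had 42.3 in spleen in place of 95.3.

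Over the day, 1 gene in 1 tissue passed the test for a 24 h rhythm. Cish in spleen had an amplitude, in log2 units from trough to peak of the fitted curve, of 0.46 ± 0.11 (SE) with a peak at ZT12.6 (adjusted p = 0.0362, edgeR). That is 1 of 10 members in spleen against 1.99% of all genes, and 0 of 10 in VAT against 1.88%. At an unadjusted p under 0.05 in edgeR, 2 members in spleen and 3 in VAT passed, against 15.6% and 17.5% of all genes.

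Cish in spleen was 220.5, 238 and 245 CPM at ZT0, 265, 271 and 217 at ZT4, and 281, 268 and 270.5 at ZT8. It was 322, 322 and 326 CPM at ZT12, 237, 336 and 337 at ZT16, and 219.8, 253 and 263 at ZT20. The libraries of ZT12 lay above all those of ZT0, ZT4, ZT8 and ZT20, while ZT16 spanned nearly the whole range. The call rests on little margin: it was lost without any one of 13 of the 18 spleen libraries (adjusted p up to 0.0994), and when any difference between the 6 times was tested (adjusted p = 0.0997). In VAT Cish had an amplitude of 0.32 ± 0.11 with a peak at ZT16.4 and did not pass (adjusted p = 0.192). The difference in rhythm between the tissues did not pass for Cish (adjusted p = 0.555) or for any of the 10 genes, against 0.00629% of all genes, and at an unadjusted p under 0.05 none of the 10 did, against 9.09%.

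Stat5b in spleen came next, with an amplitude of 0.74 ± 0.20 (SE) and a peak at ZT6.5, and did not pass (adjusted p = 0.0775, edgeR). Its levels were 230.3, 228 and 201 CPM at ZT8 and 129, 107 and 109.9 at ZT20, so the libraries of these times did not overlap. Socs3 in VAT had an amplitude of 0.60 ± 0.19 with a peak at ZT9.5 (adjusted p = 0.138). Its levels were 101, 89.8 and 95.9 CPM at ZT8 and 45.5, 82.2 and 70.3 at ZT0. The lowest group mean was that of ZT16 (63.8 CPM), where the libraries read 79.3, 76.5 and 35.5. The remaining amplitudes in VAT ran from 0.17 for Stat3 to 0.54 for Jak1, and none passed.

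**Figure D3:**
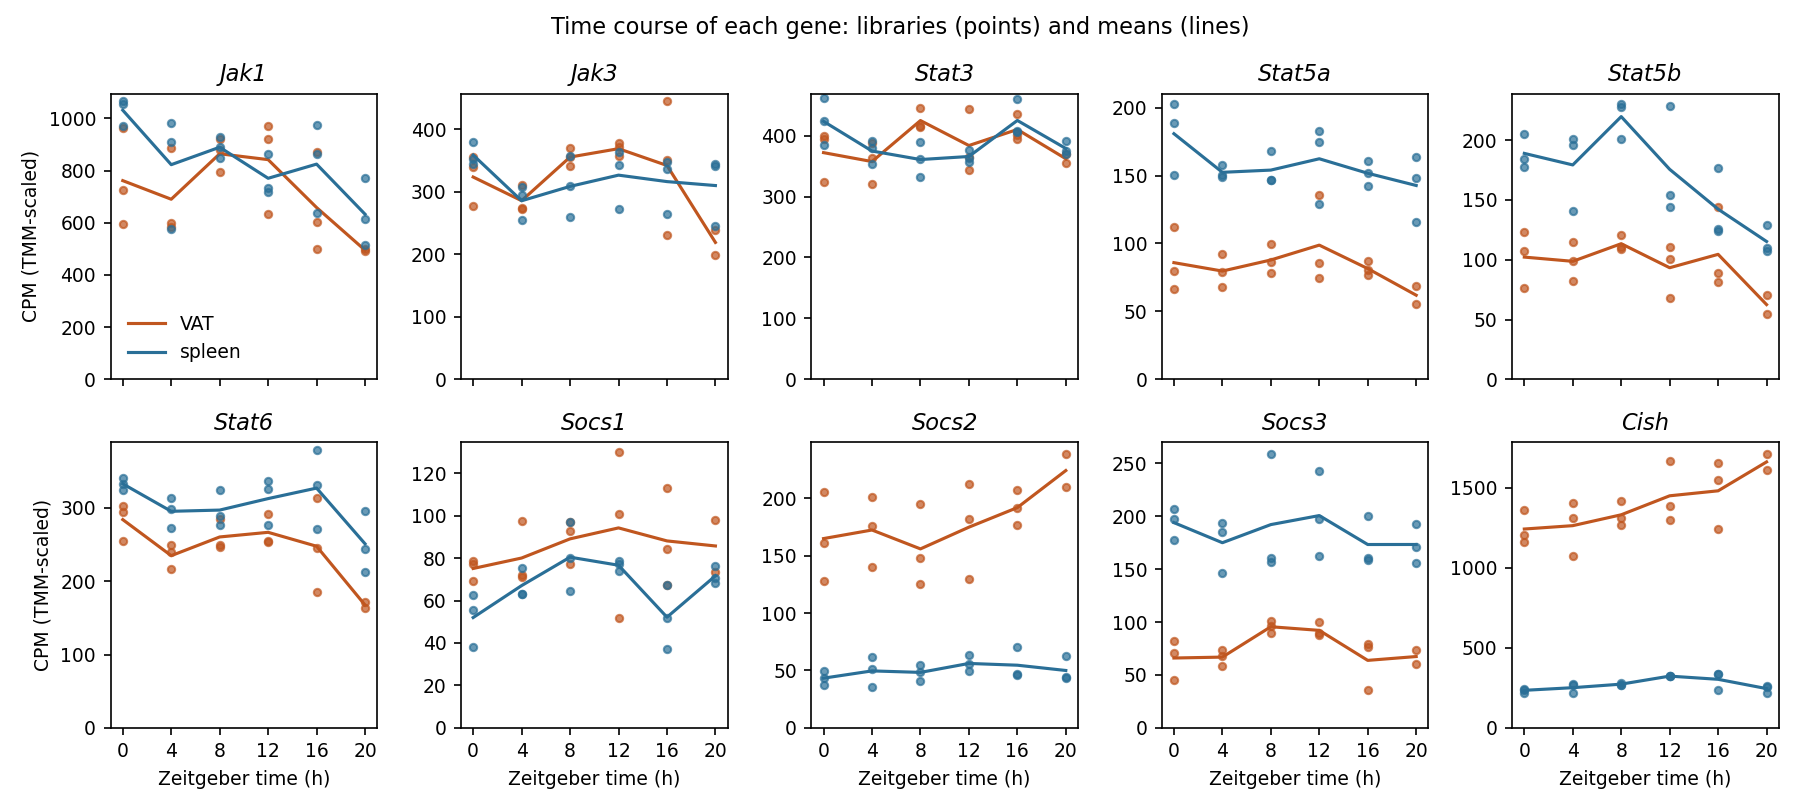
Level of each of the 10 genes in CPM by zeitgeber time in hours, with 1 point per library and lines through the group means of VAT and spleen. In spleen, Cish is highest at ZT12, where its 3 libraries read 322, 322 and 326 CPM.

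Several members moved with a measure of the libraries. For each library the slope of log2 CPM on log2 exon length over the kept genes, called the length slope here, was computed; a low value means that long transcripts gave relatively few reads. It ran from 0.562 to 0.710 in VAT and from 0.526 to 0.650 in spleen, and was lowest at ZT20 in both tissues, with means of 0.568 in VAT and 0.548 in spleen. Among 40 relations computed as one family with Benjamini-Hochberg adjustment, Jak1 in VAT followed it most closely (Pearson r = 0.87, Spearman rho = 0.90, n = 17, permutation p = 1.0e-05 for both, the smallest that 100000 permutations can give, adjusted 0.0004). Its r was 0.84 without the 2 libraries farthest from the median slope and 0.82 within times. For Stat5b in spleen r was 0.81 and rho 0.74 (n = 18, permutation p = 5.0e-05 and 0.00076, adjusted 0.001 and 0.00664), with r = 0.75 without the 2 farthest and 0.52 within times. For Cish in VAT both were -0.63 (n = 17, permutation p = 0.00668 and 0.00825, adjusted 0.0243 and 0.0412), with r = -0.43 without the 2 farthest and -0.64 within times. For Cish in spleen r was -0.07 and rho 0.05 (n = 18, permutation p = 0.78 and 0.843, adjusted 0.821 and 0.902), with r = 0.13 without the 2 farthest and -0.41 within times. In VAT r was also 0.77 for Stat5b and Stat6 and 0.76 for Jak3 (n = 17, permutation test, adjusted 0.00373 for each). Within times these were 0.74, 0.39 and 0.47. Stat5a (0.67, adjusted 0.0132) and Socs2 (-0.60, adjusted 0.0327) in VAT passed by r and not by rho. Jak1 in spleen had r = 0.67 (n = 18, adjusted 0.0115). The remaining relations with the slope did not pass.

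With the length slope as a covariate in the fit, the difference between tissues was -0.64 for Jak1, -1.21 for Stat5b, -0.49 for Stat6 and 2.54 for Cish, all in the direction they had without it. The amplitude of Cish in spleen was 0.50 (adjusted p = 0.00938, edgeR), that of Stat5b in spleen fell to 0.34 (adjusted p = 0.641), and that of Jak1 in VAT fell to 0.09. The slope came from the same counts, and its median was 0.659 in VAT and 0.601 in spleen. Since it differed by tissue and was lowest at ZT20, this fit cannot fully separate it from tissue or time.

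**Figure D4:**
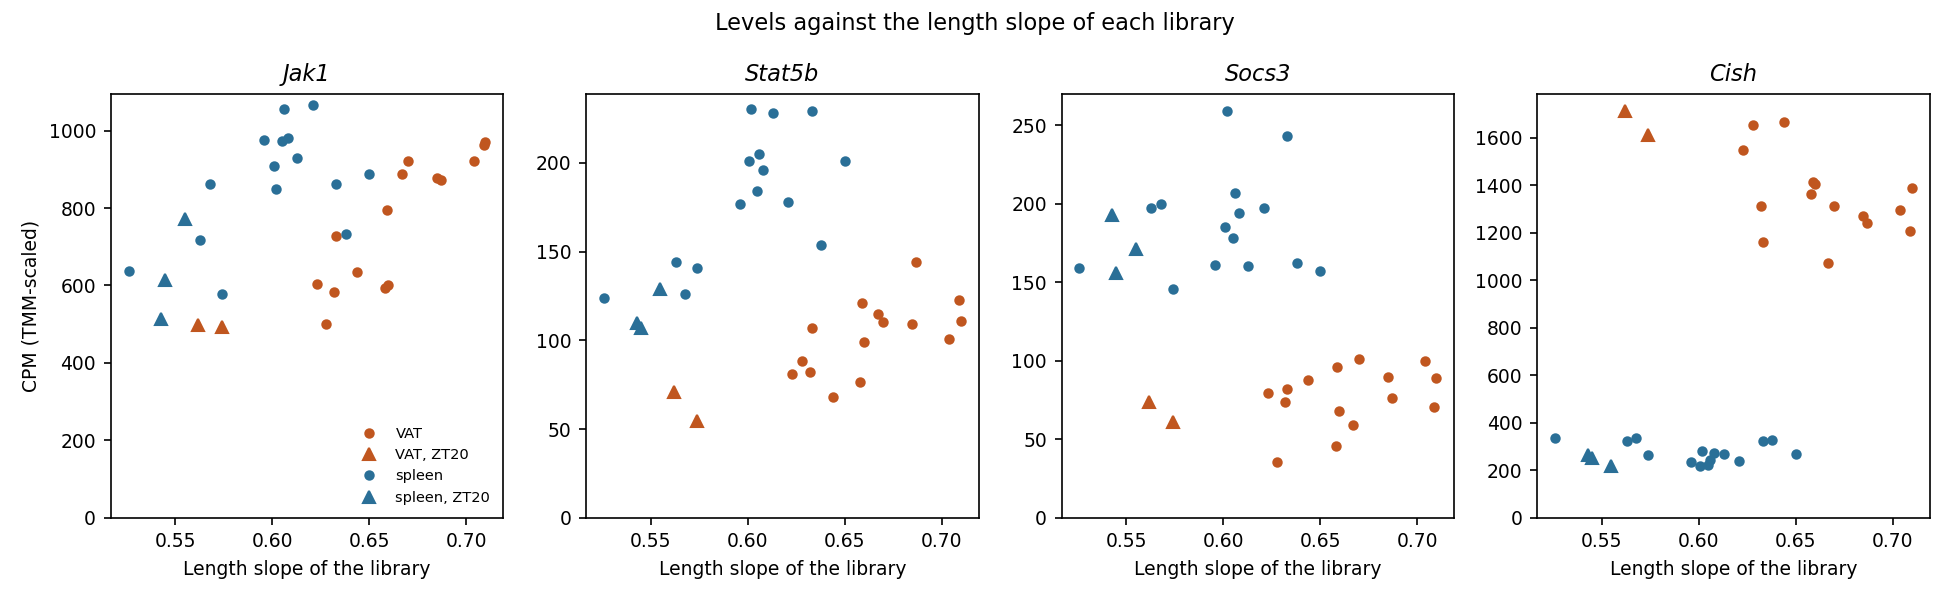
Level of Jak1, Stat5b, Socs3 and Cish in CPM against the length slope of each library, with 1 point per library and triangles for ZT20. Jak1 in VAT rises with the slope (r = 0.87), and no VAT library of Cish comes down to the level of a spleen library.

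Of the 9 other measured genes of these families, 2 were higher in VAT, 2 were lower and 5 did not pass, with a median log2 difference of -0.08 against -0.10 for all genes. With library totals 1 was higher and 5 were lower, with a median of -0.42 against -0.45 for all genes. Stat2, a transcription factor of the type I interferon response, averaged 51.8 CPM in VAT and 86.1 in spleen and was lower in VAT by a log2 difference of -0.74 ± 0.11 (SE, adjusted p = 5.85e-07, edgeR). Jak2 was higher in VAT by 0.79 ± 0.11 and Socs4 by 0.48 ± 0.14, the latter call being lost with library totals. Tyk2 (0.19), Stat4 (-0.10), Socs5 (-0.19), Socs6 (-0.08) and Socs7 (0.07) did not pass.

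For this list and those below, 28.4% of all genes tested were higher in VAT and 33.8% lower. The median of all genes was -0.10, or -0.45 with library totals. Of 26 receptor genes that signal through JAKs, 24 were measured, and 11 were higher in VAT, 10 lower and 3 not called, with a median of 0.19. With library totals 9 were higher and 10 lower, the median turned to -0.15, Il15ra turned to -0.02, and Il15ra and Il10rb lost their calls. The largest rises were those of Il9r (5.05 ± 0.16), Il10ra (3.13 ± 0.07) and Csf2rb (2.34 ± 0.52), and the largest falls those of Il13ra1 (-5.17 ± 0.58, from a spleen mean of 4.61 CPM), Il6st (-2.25 ± 0.16) and Il6ra (-1.86 ± 0.07). Il6st encodes gp130, and Il6ra the chain that binds interleukin 6. Of the interleukin 2 receptor chains, Il2ra (0.96 ± 0.05) and Il2rg (0.70 ± 0.06) were higher and Il2rb (-0.48 ± 0.05) was lower in VAT; Il2ra encodes CD25, on which the cells were sorted. A rhythm passed for Il2ra (peak ZT12.3, adjusted p = 0.0425) and Il2rg (peak ZT21.2, adjusted p = 0.0191) in VAT. In spleen it passed for Il2rb (peak ZT12.9, adjusted p = 0.0304) and Il7r (peak ZT13.8, adjusted p = 0.00478).

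Of a list of 12 genes drawn up as brakes outside the SOCS family, which also holds Lrrc32, 2 were higher in VAT, 6 lower and 4 not called, with a median of -0.17. With library totals 1 was higher and 9 were lower, with a median of -0.51. Pias3 (0.96 ± 0.10) and the phosphatase gene Ptpn2 (0.26 ± 0.06) were higher, and Ptpn2 turned to -0.08 with library totals. Lrrc32 (-4.57 ± 0.23), Usp18 (-4.10 ± 0.24) and the phosphatase gene Ptpn6 (-1.55 ± 0.07) fell furthest. Lrrc32 encodes GARP, which docks latent TGF-beta on Tregs and is not known as a JAK inhibitor, so its fall is not that of a brake in the sense of the list, and Usp18 is itself induced by interferon. Ptpn6 was rhythmic in VAT (peak ZT21.2, adjusted p = 0.0103) and Sh2b3, an adaptor that restrains JAK2, in spleen (peak ZT6.9, adjusted p = 0.0205).

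Of 21 textbook STAT target genes, 13 were higher in VAT, 5 lower and 3 not called, with a median of 0.79; with library totals 13 were higher and 8 lower, with a median of 0.44. The largest rises were those of Junb (5.73 ± 0.07), Gzmb (4.64 ± 0.30) and Gata3 (3.44 ± 0.07), and the largest falls those of the survival gene Bcl2 (-4.26 ± 0.18), Lta (-3.95 ± 0.17) and Ccnd3 (-0.59 ± 0.06). Junb is an early gene of the AP-1 family, and Gata3 a lineage factor of type 2 responses, so the list mixes genes with several inputs. In spleen a rhythm passed for Junb (peak ZT15.8, adjusted p = 0.00203), Batf (peak ZT20.1, adjusted p = 0.0246), Gata3 (peak ZT18.5, adjusted p = 0.0264), Myc (peak ZT16.2, adjusted p = 0.0446) and Ccnd3 (peak ZT14.9, adjusted p = 0.0472), and in VAT for Il2ra.

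**Figure D5:**
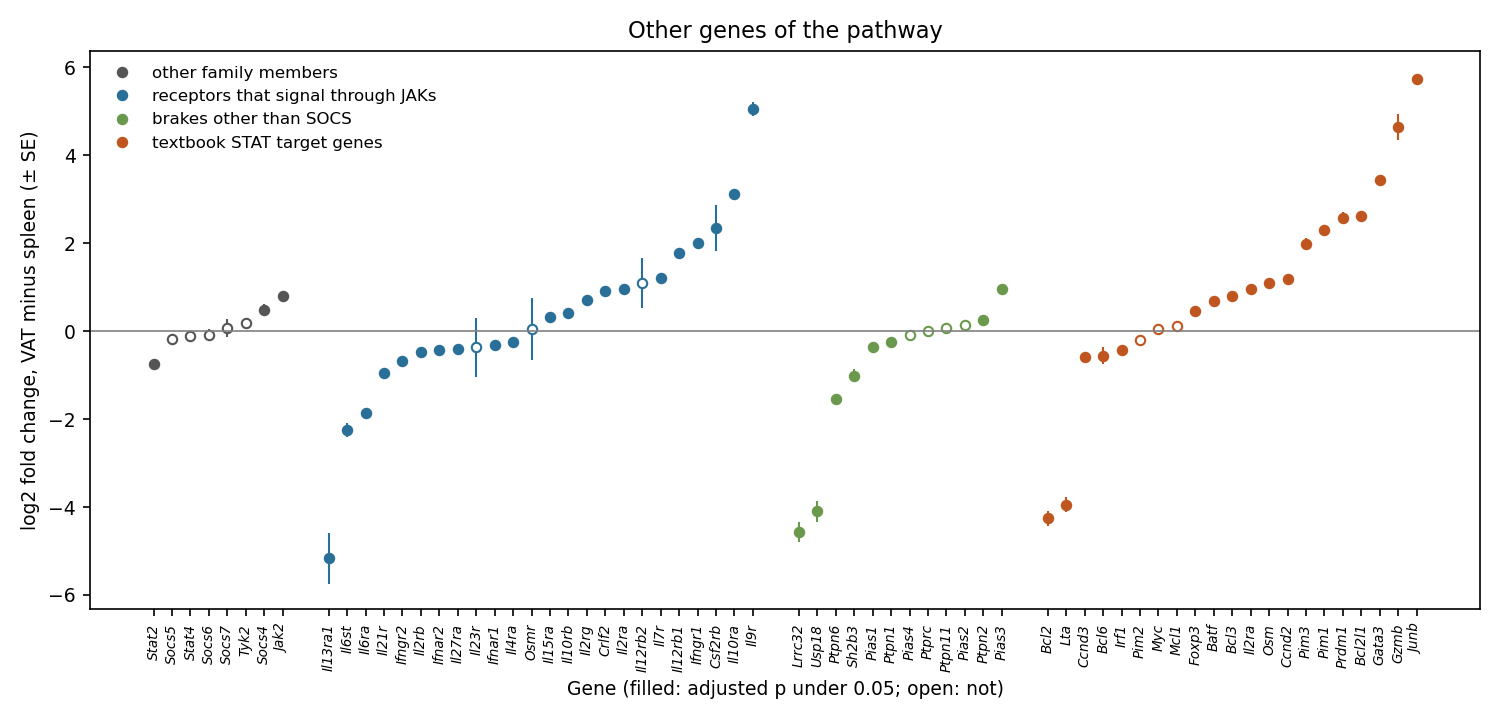
Log2 difference of VAT minus spleen with its SE for other genes of the pathway, in 4 lists; filled points passed an adjusted p of 0.05 and open points did not. Jak2, at 0.79, lies highest of the other family members shown, and Junb, at 5.73, highest of the STAT targets.

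Among the 16 early genes the largest rises in VAT were those of Atf3 (10.89 ± 0.30), Fos (8.97 ± 0.25) and Fosb (8.89 ± 0.23), and Dusp1 was rhythmic in spleen (peak ZT14.4, adjusted p = 7.88e-05). Of 8 genes that respond to glucocorticoids, 5 were higher in VAT, 1 lower and 2 not called, with a median of 1.08; with library totals 5 were higher and 3 lower, with a median of 0.73. Sgk1 (2.91 ± 0.13), Per1 (2.73 ± 0.07) and Fkbp5 (1.75 ± 0.09) rose most, and Zbtb16 (-1.97 ± 0.73) was lower at a mean of 0.313 CPM in VAT and 1.05 in spleen. Tsc22d3, a glucocorticoid-induced gene, was rhythmic in spleen with a peak at ZT12.6 (adjusted p = 2.61e-06), where Cish also peaked at ZT12.6, and in VAT with a peak at ZT12.3 (adjusted p = 0.0103). Fkbp5 (peak ZT14.4, adjusted p = 0.0425) and Txnip (peak ZT11.0, adjusted p = 0.0187) were rhythmic in VAT. The part of these genes in the rhythm of Cish was not tested.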

How the data were processed

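The data were RNA sequencing libraries of sorted CD4+ CD25+ Tregs, 17 from VAT and 18 from spleen. What the authors deposited was one table of whole-number read counts, unnormalized, for 55011 gene symbols. The submitters' processing notes name STAR 2.7.3a, featureCounts and the build mm10. No source used here gives the annotation, the strand setting or the handling of reads with several matches. Genes were kept by filterByExpr over the 12 groups of tissue and time (15910 genes) and scaled by trimmed mean of M values (TMM) in edgeR 4.0.16 under R 4.3.3. Tests were robust quasi-likelihood tests, adjusted by Benjamini-Hochberg over the 15910 genes, with a threshold of 0.05, and all adjusted p values of expression come from them unless DESeq2 1.42.0 is named. VAT against spleen was the mean of 6 group means minus the mean of the other 6. Rhythm was a cosine and a sine with a period of 24 h. Log2 CPM had a prior count of 2. The scripts were tested on simulated data. Lengths and positions came from GENCODE M21 (GRCm38), where 52830 symbols matched 1 gene, and the length slope used 98.0% of the kept genes. Deviations of same-letter libraries of one tissue at different times had a median correlation of 0.00, and the main fit did not use the letter as a block. Alternatives were DESeq2, library totals, no filter, letters or pairs as blocks, each library left out, the length slope as a covariate, no ZT20, each tissue alone and any difference between times. The members, the lists and the rule for naming genes (all 10 members and 9 relatives, and in each other list the 3 called genes with the largest rises, the 3 with the largest falls and every rhythmic gene) were chosen with earlier results of these data known. Some genes that the rule names are not reported here. PCR copies were not marked by molecular identifiers.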

Additional observations from a re-analysis of the deposited data

How the results depend on the processing

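Of 300 values of single genes under alternatives other than leaving out a library, 288 stayed on their side of the threshold, 12 crossed it, and 0 of those called changed sign; the uncalled Jak3 ran from -0.37 to 0.07 and Stat3 from -0.36 to 0.02 between the tissues. Of 30 counts of called members, 23 stayed within 1.5 times and 7 did not. For VAT against spleen the count of 8 called members ran from 7 to 9, and from 7 to 8 with each library left out. For rhythm in VAT the count of 0 became 2 without the filter on low counts (Jak1, amplitude 0.55, and Socs3, amplitude 0.63). It became 1, for Stat6, when any difference between times was tested. The value there is the highest minus the lowest group mean in log2 units, 0.76 for Stat6, whose amplitude in the main fit was 0.24. For rhythm in spleen the count of 1 became 2 with DESeq2, without the filter and with spleen libraries alone, each adding Stat5b (adjusted p = 0.0356, 0.00439 and 0.0189), and 0 for any difference between times. With each library left out it ran from 0 to 2; Cish was lost without each spleen library other than ZT0 C, ZT4 B, ZT4 C, ZT16 A and ZT20 A, and Stat5b was gained without spleen ZT4 B, spleen ZT16 A, VAT ZT16 B or VAT ZT20 A. Leaving out 1 VAT library of ZT20 leaves a lone one, assumed to vary like the other groups. The causes were not tested.

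With library totals as the scaling, the calls over all genes went from 4520 higher and 5376 lower in VAT to 2856 and 8514. Rhythmic genes over all genes numbered 299 in VAT, with 663 by DESeq2, 1572 without the filter and 813 for any difference between times; in spleen they numbered 316, with 853, 1446 and 322.

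With the replicate block by letter, the count of rhythmic members in spleen was 0, since Cish had an adjusted p of 0.0609, and 171 genes were called in spleen in place of 316. The labels do not say what a letter marks. Over 63 pairs of the same letter and tissue at different times the correlation of deviations had a median of 0.00, from -0.12 to 0.12. Over 17 pairs of VAT and spleen of the same time and letter it had a median of -0.01. Whether letters mark shared mice or days cannot be read from these values.

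Socs3 rested on as few as 119 counts in a library and Socs2 on 97, which limits small differences between times.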

Other observations

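Within tissues, 10 relations in each were computed among Cish, Socs1, Socs2 and Socs3 and of Stat5a and Stat5b with Cish and Socs2, as part of the 40 relations adjusted together. In VAT, libraries with more Stat5b had less Cish (r = -0.73, rho = -0.70, n = 17, permutation p = 0.00104 and 0.00257, adjusted 0.00594 and 0.0171). Without the 2 libraries farthest from the median r was -0.65, within times it was -0.73, and after the length slope was taken out it was -0.49. Stat5b and Socs2 in VAT gave r = -0.71 and rho = -0.75 (n = 17, permutation p = 0.00161 and 0.00079, adjusted 0.00805 and 0.00664), with -0.68 without the 2 farthest, -0.63 within times and -0.49 after the length slope. Stat5a and Socs2 in VAT gave r = -0.73 and rho = -0.61 (n = 17, permutation p = 0.00056 and 0.011, adjusted 0.00373 and 0.0446), with -0.59 without the 2 farthest, -0.71 within times and -0.55 after the length slope. Stat5a and Cish in VAT did not pass (r = -0.38, rho = -0.45, n = 17, permutation p = 0.133 and 0.0739, adjusted 0.314 and 0.197), and r was 0.08 after the length slope. In spleen Stat5b gave r = -0.16 with Cish and -0.30 with Socs2 (n = 18, permutation p = 0.522 and 0.228), and Stat5a gave -0.04 and 0.08 (n = 18, permutation p = 0.87 and 0.741). Within times r in spleen was -0.56 for Stat5b with Cish and -0.35 with Socs2, and 0.04 and 0.28 for Stat5a. The difference between tissues was not tested. Cish and Socs2 moved together in spleen (r = 0.61, rho = 0.58, n = 18, permutation p = 0.00799 and 0.0129, adjusted 0.0266 and 0.0469), with 0.61 without the 2 farthest, 0.51 within times and 0.60 after the length slope. In VAT the same pair had the same sign and did not pass (r = 0.50, rho = 0.43, n = 17, permutation p = 0.0394 and 0.0852, adjusted 0.105 and 0.213). There r was 0.39 without the 2 farthest, 0.27 within times and 0.20 after the length slope.

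The genes most like each member were ranked by Pearson r over the 35 libraries of log2 CPM less the tissue mean, among 8879 genes, as a description of libraries that also share depth and length slope. For Cish they were Cd69 (0.75), an early activation marker, Rps25 (0.72) and Resf1 (0.71). For Jak1 they were Eif4g2, Prkacb and Herc4, each at 0.95, and for Stat5b they were Ikzf1 (0.89), Lnpep (0.89) and Usp47 (0.88). Socs3 was nearest to Tubgcp6 (0.71), Nub1 (0.70) and Fyttd1 (0.66), Socs2 to Cnot8 (0.75), Mvb12a (0.69) and Bphl (0.68), and Socs1 to Mboat7 (0.82), Rp9 (0.77) and Letm1 (0.74). Stat5a was nearest to Copb2 (0.74) and Rel (0.72), Stat6 to Rasal3 (0.88), Dhx15 (0.87) and Ccng1 (0.86), Stat3 to Psd4 and Hspa4l (both 0.66) and Ptprc (0.65), and Jak3 to Arhgap45 (0.82), Slc44a2 and Atp2a3 (both 0.80).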
